A study of Mus musculus with 6 samples.

Results

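The collagen chains other than collagen VI were taken as every gene of the table whose symbol is Col, a type number, a and a chain number, with the Col6a genes left out. This gave 36 of the 26231 genes, out of 42 collagen genes of which 6 code for collagen VI. By the supramolecular form of their collagen, 11 are fibrillar chains, 8 are basement membrane chains, 8 are fibril-associated collagens with interrupted triple helices (FACIT) and 9 form other networks, span the cell membrane or belong to neither. RNA was sequenced from mouse embryonic fibroblasts (MEFs) in 3 libraries labelled MEF WT and 3 labelled MEF Nf2 KO, each numbered 1 to 3 and carrying the marks A, B and 2018. The cells of both groups came from embryos of about 14 days by the labels, or a day younger by the study's methods, on an FVB background, carried Nf2 alleles flanked by loxP sites, had been immortalized with SV40 large T antigen by lentivirus, and were kept without serum for 24 h before RNA was extracted. The MEF WT line then received a GFP lentivirus, so it is a control with intact floxed alleles rather than a wild type, and the MEF Nf2 KO line received a lentivirus carrying Cre and GFP under the CMV promoter. There was 1 line of each kind and nothing says that the libraries came from separate cultures, so the p-values measure the spread between these libraries, which may be technical, and a difference between the groups cannot be told apart from a difference between these 2 lines.

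Collagens are trimers of alpha chains wound into a helix, assembled in the endoplasmic reticulum, secreted and trimmed, and they form the scaffold that connective tissue cells sit in. Fibrillar collagens I, II, III, V and XI build the cross-striated fibrils, with type I the bulk of skin and bone and types V and XI present in small amounts that set where a fibril starts and how wide it grows. Type IV chains build the sheet of basement membranes, FACIT chains coat the surface of fibrils, and types VII, VIII and X build anchoring fibrils and short-chain networks. Nf2 codes for Merlin, a membrane-linked tumour suppressor that restrains YAP and TAZ, which act on DNA through TEAD factors.

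The promoters are shown for the chain with the largest difference upward (Col11a1), the 2 chains with the largest differences downward among the genes tested (Col18a1 and Col5a3), and the interval shared by Col4a3 and Col4a4, whose values put the 6 libraries in the same order. Each is the 250 bases before the RefSeq start in GRCm38.p6, written 5′ to 3′ on the strand of the gene, except that the interval between Col4a3 and Col4a4 is the 71 bases between the annotated starts of these head-to-head genes, written on the strand of Col4a4. They lie at chr3:114030290-114030539 (plus strand, Col11a1), chr9:20815068-20815317 (minus strand, Col5a3), chr10:77166531-77166780 (minus strand, Col18a1) and chr1:82586850-82586920 (minus strand, Col4a3 and Col4a4). Capitals mark matches to the GC box GGGCGG, the CCAAT box CCAAT, the TATA box TATAAA and the core GGAATG bound by TEAD factors, each searched on both strands, with overlapping matches allowed.
Col11a1: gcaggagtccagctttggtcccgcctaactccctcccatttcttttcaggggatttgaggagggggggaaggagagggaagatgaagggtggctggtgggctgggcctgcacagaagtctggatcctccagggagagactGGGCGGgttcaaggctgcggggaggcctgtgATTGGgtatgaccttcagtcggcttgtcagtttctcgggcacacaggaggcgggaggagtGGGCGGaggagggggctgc
Col5a3: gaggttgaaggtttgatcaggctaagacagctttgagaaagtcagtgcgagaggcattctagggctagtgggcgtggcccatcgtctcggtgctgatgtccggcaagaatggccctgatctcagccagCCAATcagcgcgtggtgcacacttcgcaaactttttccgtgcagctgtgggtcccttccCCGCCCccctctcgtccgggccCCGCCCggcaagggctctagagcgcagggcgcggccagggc
Col18a1: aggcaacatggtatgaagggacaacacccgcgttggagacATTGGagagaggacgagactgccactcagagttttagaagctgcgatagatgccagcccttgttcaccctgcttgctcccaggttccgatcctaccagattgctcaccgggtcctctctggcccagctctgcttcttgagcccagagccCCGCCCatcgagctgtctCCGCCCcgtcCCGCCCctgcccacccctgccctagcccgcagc
Col4a3 and Col4a4: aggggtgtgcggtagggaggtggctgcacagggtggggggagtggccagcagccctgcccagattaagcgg

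The windows before Col11a1 and Col5a3 each held 2 GC boxes and 1 CCAAT box, and that before Col18a1 held 3 GC boxes and 1 CCAAT box. The interval between Col4a3 and Col4a4 held none of the 4 motifs. RefSeq windows were found for 27 of the 36 members, 28 windows in all, and none for Col1a1, Col2a1, Col4a3, Col5a2, Col9a3, Col12a1, Col14a1, Col22a1 and Col26a1. A GC box stood in 17 of the 28 (60.7%), against 32.7% of all 32851 windows, and a CCAAT box in 11 (39.3%), against 33.8%. The TATA box stood in 4 (14.3%, against 12.4%) and GGAATG in 3 (10.7%, against 12.6%), those of Col3a1, Col20a1 and a second start within Col18a1. The 3 printed windows of 250 bases, of 1 chain that was higher and 2 that were lower in MEF Nf2 KO, each held both boxes, and a match is only a run of letters.

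Read depth, worked out from the size of a single read in the low values, ran from 13455847 reads in MEF WT 1 to 73047779 in MEF Nf2 KO 3, and the libraries numbered 3 were the deepest of both groups. Nf2 was at 14.3, 13.7 and 13.1 RPKM (a read count divided by exon length and by library size) in MEF WT 1 to 3 and at 15.4, 12.9 and 13.9 RPKM in MEF Nf2 KO 1 to 3. The groups overlapped, and the RNA of Nf2 did not fall with the knockout label (log2 difference 0.03 ± 0.10 SE, limma adjusted p = 0.987). This value counts the whole gene and does not resolve the floxed part, so the groups are named here by their labels. In bulk RNA, fewer cells of a type and less RNA per cell cannot be told apart.

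**Figure D1:**
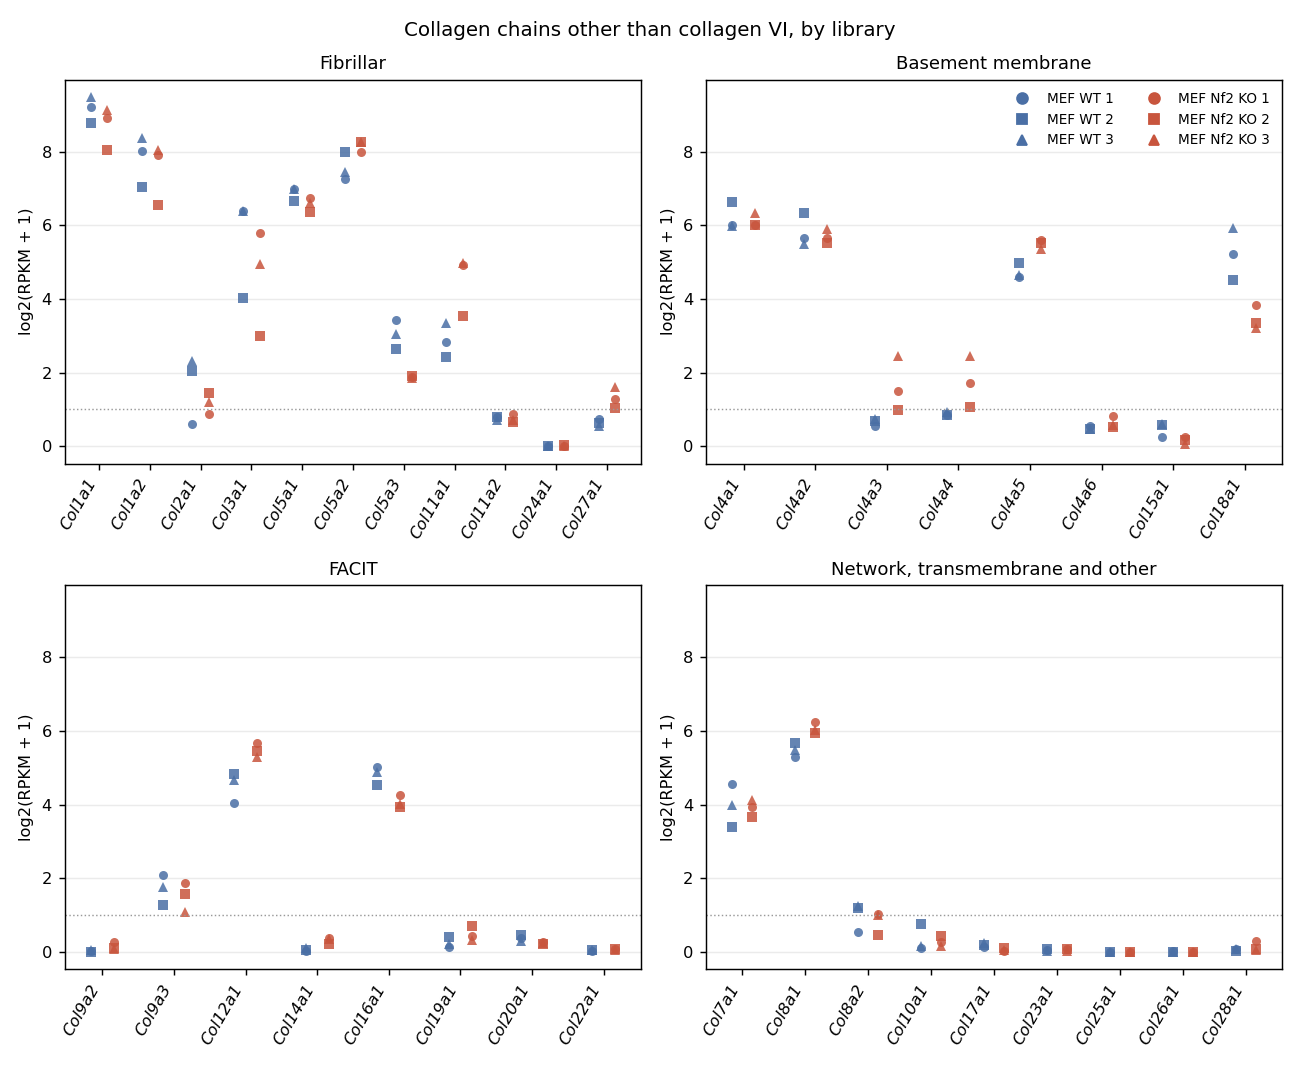
Level of each of the 36 collagen chains in each library as log2(RPKM + 1), by class; blue points are MEF WT, red points MEF Nf2 KO, circles, squares and triangles are replicates 1, 2 and 3, and the dotted line marks 1 RPKM. Col1a1 stands highest, Col11a1, Col12a1 and Col4a5 are higher and Col18a1, Col5a3 and Col16a1 lower in all 3 libraries labelled MEF Nf2 KO, and replicate 2 is the lowest of both groups for Col1a1, Col1a2 and Col3a1.

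Of the 36 chains, 20 reached 1 RPKM in at least 3 of the 6 libraries and were tested, and 16 did not. The 20 parted into 7 that were higher and 13 that were lower on average in the libraries labelled MEF Nf2 KO, with log2 differences from -1.74 (Col18a1) to 1.61 (Col11a1). Their median was -0.16, beside -0.01 over the 11067 genes tested. Differences throughout are of log2(RPKM + 1), MEF Nf2 KO minus MEF WT, and so understate the change of low genes. By the planned test, limma on the 6 libraries with Benjamini-Hochberg adjustment over all 11067 genes, none of the 20 passed an adjusted p of 0.05, while 1.06% of all genes did. At a raw p below 0.05 there were 10 of the 20, beside 9.91% of all genes, and these hold Col4a4 and Col27a1, which met the filter only through the libraries labelled MEF Nf2 KO and so had to be higher. The nearest to the threshold were Col5a3 (adjusted p = 0.0553) and Col4a5 (adjusted p = 0.0666).

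Much of the spread ran along the replicate number. Libraries of the same number departed from their group means together, and replicate 2 was the lowest of both groups for 7 of the 20 chains, which were Col1a1, Col1a2, Col3a1, Col5a1, Col7a1, Col11a1 and Col16a1. For 9 of the 20 the distance of replicate 2 from the other replicates was larger than the difference between the groups. With the replicate number as a block in limma, 7 of the 20 (35%) passed the threshold, beside 7.53% of all genes. Col11a1, Col4a5 and Col5a2 rose (3 chains, 15%, beside 2.99% of all genes that rose). Col16a1, Col18a1, Col3a1 and Col5a3 fell (4 chains, 20%, beside 4.54% of all genes that fell). With the block and no filter on low values none of the chains passed, and 2 of 26231 genes did.

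All 3 libraries of a group lay on one side of the other group for 10 of the 20 chains (50%), beside 15.1% of all genes. These were 7 higher chains (7.6% of all genes) and 3 lower chains (7.52% of all genes), with Col4a4 and Col27a1 again among the 7. The differences of the 3 same-numbered pairs had the same sign in 14 of the 20 chains (70%), beside 46.9% of all genes. Col4a4 and Col27a1 are among these 14 as well, and by the filter their pair differences had to be positive. The count of chains past the threshold without the block, 0 with all 6 libraries, depended on replicate 2. It was 4 without MEF WT 2 (Col4a5, Col16a1, Col18a1 and Col5a3, beside 1.28% of all genes), and 1 without MEF Nf2 KO 2 (Col11a1, beside 0.831%). It was 9 without replicate 2 of both groups, beside 4.37% of all genes. There Col4a4, Col4a5, Col5a2, Col8a1, Col11a1 and Col27a1 were higher and Col16a1, Col18a1 and Col5a3 lower. Of these 9, Col4a4 and Col27a1 met the filter only through the MEF Nf2 KO libraries. With the block, leaving out replicate 1, 2 or 3 of both groups gave 5, 6 and 4 chains. The shares of all genes were 2.89%, 4.1% and 3.79%. Col4a5 and Col16a1 passed in each, and Col4a4, set apart by the filter, was among the 6.

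**Figure D2:**
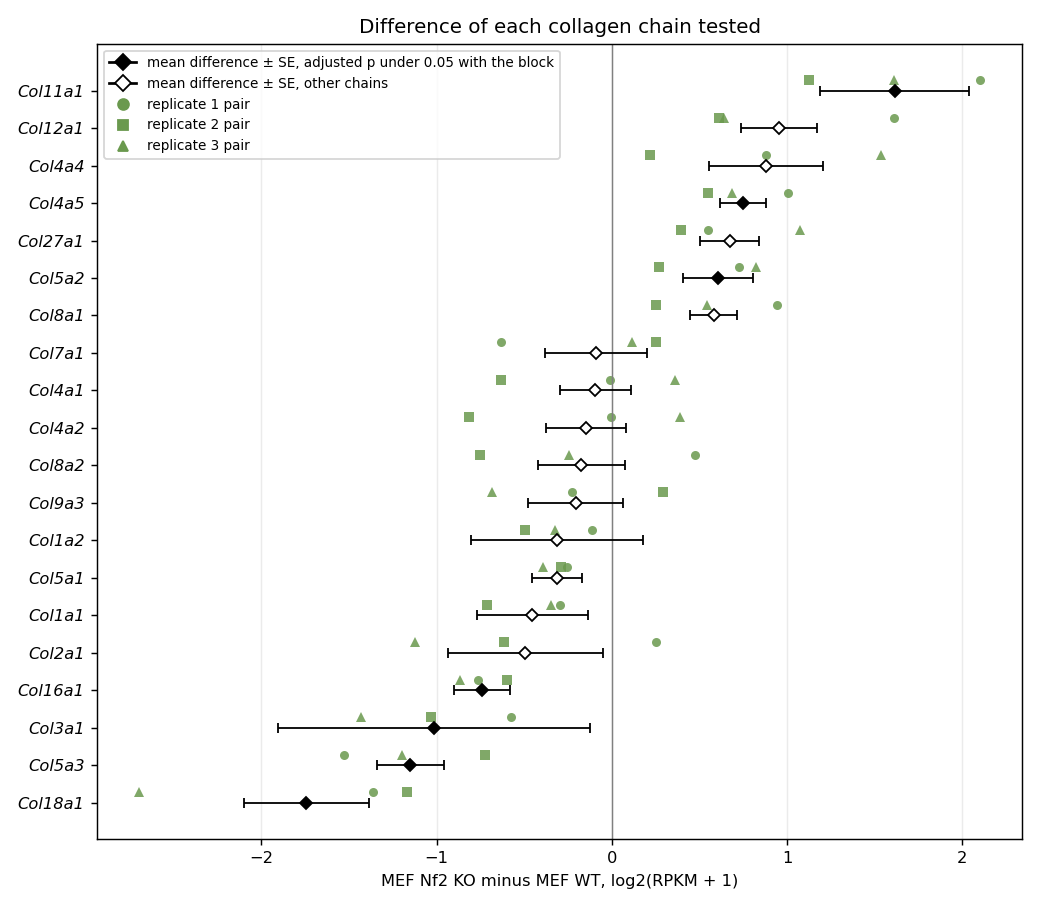
Difference between groups of each of the 20 collagen chains tested, in log2(RPKM + 1), MEF Nf2 KO minus MEF WT; diamonds and bars are the mean difference ± SE of the fit without the block (n = 3 against 3), filled where the adjusted p with the replicate block is under 0.05, and green points are the differences of the same-numbered pairs. The 7 chains from Col8a1 (0.58) up to Col11a1 (1.61) have all 3 pair differences above 0, and Col4a1 and Col4a2 have pair differences on both sides of 0.

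Among the fibrillar chains, Col11a1, the alpha1 chain of type XI collagen that starts cartilage fibrils, showed the largest difference upward. It was at 6.11, 4.36 and 9.23 RPKM in MEF WT 1 to 3 and at 29.6, 10.7 and 30.2 RPKM in MEF Nf2 KO 1 to 3 (chr3:114030540-114220718, plus strand, GRCm38). Every MEF Nf2 KO library lay above every MEF WT library, and the mean was 3.58 times that of MEF WT. The log2 difference was 1.61 ± 0.43 (SE, n = 3 against 3), with a limma adjusted p of 0.205 without the block and 0.0115 with it. Col11a2, its partner chain, stayed between 0.577 and 0.834 RPKM in all 6 libraries and was not tested.

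Type V collagen, which is built into type I fibrils, gave values in both directions. Col5a2 was at 153, 254 and 174 RPKM in MEF WT and at 254, 305 and 308 RPKM in MEF Nf2 KO (chr1:45374321-45503282, minus strand). The groups were set apart by less than 1 RPKM, between MEF WT 2 and MEF Nf2 KO 1, and the log2 difference was 0.61 ± 0.20 (SE; adjusted p = 0.333, or 0.0495 with the block). With the block and median centring Col5a2 no longer passed. Col5a1 was at 126, 100.2 and 126 RPKM in MEF WT and at 105, 81.6 and 96.1 RPKM in MEF Nf2 KO. Every pair was lower in MEF Nf2 KO, but the groups overlapped and Col5a1 did not pass (-0.31 ± 0.14 SE; adjusted p = 0.565, or 0.0659 with the block). Col5a3, a minor chain of type V, was at 9.69, 5.24 and 7.28 RPKM in MEF WT (chr9:20770050-20815067, minus strand). It stood at 2.71, 2.78 and 2.61 RPKM in MEF Nf2 KO, below every MEF WT library and with an SD of 0.0873 RPKM (n = 3). Its log2 difference was -1.15 ± 0.19 (SE; adjusted p = 0.0553, or 0.0173 with the block).

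Type I collagen, the most abundant, did not pass either test. Col1a1 was at 595, 435 and 712 RPKM in MEF WT and at 483, 265 and 560 RPKM in MEF Nf2 KO. Col1a2 was at 260, 131 and 330 RPKM in MEF WT and at 240, 92.4 and 263 RPKM in MEF Nf2 KO. Both were lower in each of the 3 pairs, and replicate 2 was far below the others in both groups. The log2 differences were -0.45 ± 0.31 (SE; adjusted p = 0.812, or 0.0779 with the block) for Col1a1 and -0.31 ± 0.49 (SE; adjusted p = 0.964, or 0.137 with the block) for Col1a2. Leaving out MEF Nf2 KO 2 took them to -0.13 and 0.17.

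Col3a1, the chain of type III collagen that accompanies type I in skin and vessel walls, was at 82.0, 15.3 and 82.1 RPKM in MEF WT (chr1:45311538-45349706, plus strand). In MEF Nf2 KO it was at 54.7, 6.95 and 29.8 RPKM. The groups overlapped through MEF WT 2, which was below MEF Nf2 KO 1 and 3, while each pair differed downward, by -0.58, -1.03 and -1.43. The log2 difference was -1.01 ± 0.89 (SE), with an adjusted p of 0.890 without the block and 0.0274 with it. Without the block it was -0.22 when MEF Nf2 KO 2 was left out and -1.80 when MEF WT 2 was. Col3a1 and Col5a2 lie tail to tail on chromosome 1 with 24614 bases between their ends, and they differed in opposite directions.

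The other fibrillar chains were low. Col2a1, the main chain of cartilage fibrils, ran from 0.530 to 4.0 RPKM in MEF WT and from 0.825 to 1.72 RPKM in MEF Nf2 KO, with pair differences of both signs. Col27a1, another cartilage fibrillar chain, was at 0.656, 0.563 and 0.455 RPKM in MEF WT and at 1.42, 1.05 and 2.06 RPKM in MEF Nf2 KO. No MEF WT library and all 3 MEF Nf2 KO libraries reached 1 RPKM, so the filter itself set these groups apart, and the difference did not pass (0.67 ± 0.17 SE; adjusted p = 0.178, or 0.0568 with the block). Col24a1, a chain known from bone, had at most 5 reads in any library.

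In the basement membrane class, Col18a1 showed the largest difference downward of all chains. Its chain ends in the fragment known as endostatin. It was at 36.0, 21.9 and 59.4 RPKM in MEF WT and at 13.4, 9.21 and 8.32 RPKM in MEF Nf2 KO (chr10:77052178-77166548, minus strand). Every MEF Nf2 KO library lay below every MEF WT library, and the mean was 0.263 of that of MEF WT. The log2 difference was -1.74 ± 0.35 (SE; adjusted p = 0.102, or 0.0318 with the block), with pair differences of -1.36, -1.17 and -2.70. Slc19a1 on the other strand overlaps the annotated end of Col18a1 but shares no exon bases with it, and its groups overlapped, at 3.98, 7.44 and 3.58 RPKM in MEF WT and 3.23, 8.66 and 3.33 RPKM in MEF Nf2 KO. Col15a1, the related chain, was under 0.53 RPKM in every library, with overlapping groups.

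Col4a1 and Col4a2 are the chains of type IV collagen found in most basement membranes. Col4a1 was at 63.9, 98.9 and 62.0 RPKM in MEF WT and at 63.4, 63.6 and 79.8 RPKM in MEF Nf2 KO. Col4a2 was at 49.6, 79.4 and 44.4 RPKM in MEF WT and at 49.3, 44.6 and 58.5 RPKM in MEF Nf2 KO. For both, MEF WT 2 was the highest library and the pairs differed in sign, and neither passed (-0.09 ± 0.20 SE, adjusted p = 0.981 for Col4a1; -0.14 ± 0.23 SE, adjusted p = 0.964 for Col4a2). Without replicate 2 both differences turned positive, at 0.17 and 0.19.

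Col4a5, the X-linked chain that joins Col4a3 and Col4a4 in kidney basement membrane, was at 23.3, 30.4 and 24.3 RPKM in MEF WT (chrX:141475385-141689234, plus strand). It was at 47.6, 44.8 and 39.7 RPKM in MEF Nf2 KO, where every library lay above the control libraries. The mean was 1.70 times that of MEF WT, and the log2 difference was 0.75 ± 0.13 (SE; adjusted p = 0.0666, or 0.0158 with the block). Col4a6, its head-to-head neighbour 1308 bases away, stayed between 0.370 and 0.763 RPKM with overlapping groups.

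Col4a3 and Col4a4 start 71 bases apart on opposite strands of chromosome 1, at the interval printed above. Col4a4 was at 0.798, 0.800 and 0.892 RPKM in MEF WT and at 2.31, 1.09 and 4.49 RPKM in MEF Nf2 KO. Col4a3 was at 0.473, 0.619 and 0.673 RPKM in MEF WT and at 1.85, 0.971 and 4.43 RPKM in MEF Nf2 KO. Both genes had the same order of libraries, with MEF Nf2 KO 3 the highest, then MEF Nf2 KO 1, then MEF Nf2 KO 2, then the control libraries. Col4a4 met the filter only through the MEF Nf2 KO libraries, and its log2 difference was 0.88 ± 0.33 (SE; adjusted p = 0.408, or 0.104 with the block). Without MEF Nf2 KO 3 it was 0.53. Col4a3 was under the filter, and an exact two-sided permutation test gave p = 0.1, the smallest that 3 against 3 libraries can give. The reads behind Col4a3 were 63.5 to 410 per library in MEF WT and 187 to 3226 in MEF Nf2 KO, and 563 bases of its exons (5.65%) overlap C430014B12Rik on the other strand.

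**Figure D3:**
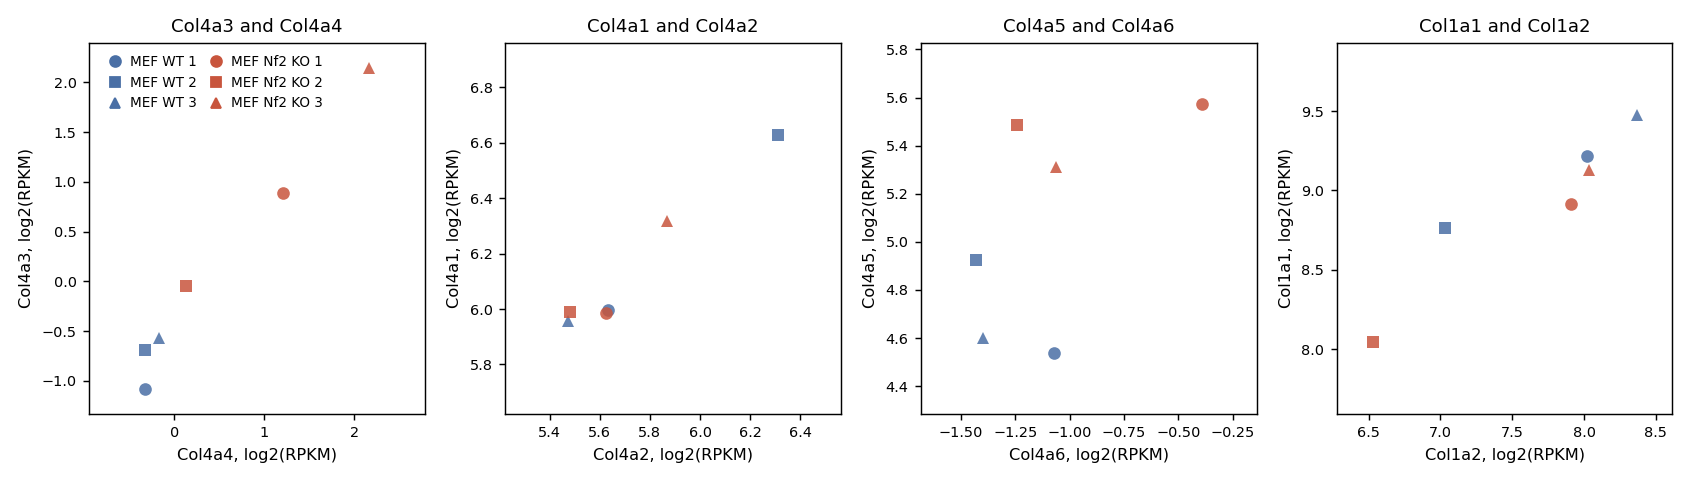
Levels of neighbouring or partner chains against each other in each library, both axes in log2(RPKM) with the same span within a panel; blue points are MEF WT, red points MEF Nf2 KO, and circles, squares and triangles are replicates 1, 2 and 3. Col4a3 and Col4a4 order the libraries alike from 0.473 and 0.798 RPKM in MEF WT 1 to 4.43 and 4.49 RPKM in MEF Nf2 KO 3, while the MEF Nf2 KO points of Col4a5 lie above the MEF WT points at overlapping levels of Col4a6.

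The FACIT chains split by member. Col12a1, which coats fibrils in tendon and dermis, was at 15.6, 27.7 and 24.3 RPKM in MEF WT and at 49.8, 42.7 and 38.4 RPKM in MEF Nf2 KO (chr9:79598991-79718831, minus strand). Every MEF Nf2 KO library was above the control libraries, but Col12a1 passed neither test (0.95 ± 0.22 SE; adjusted p = 0.142, or 0.0597 with the block). Col16a1, a chain found near fibrils and microfibrils, was at 31.4, 22.0 and 28.6 RPKM in MEF WT and at 18.1, 14.2 and 15.3 RPKM in MEF Nf2 KO (chr4:130047840-130099283, plus strand). The groups did not overlap and the 3 pair differences were close, at -0.76, -0.60 and -0.86. The log2 difference was -0.74 ± 0.16 (SE; adjusted p = 0.117), and with the block its adjusted p of 0.0073 was the smallest of the 20 chains.

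Col9a3, a cartilage FACIT chain, was at 3.28, 1.41 and 2.42 RPKM in MEF WT and at 2.65, 1.95 and 1.13 RPKM in MEF Nf2 KO, with overlapping groups. The remaining 5 FACIT chains were under the filter. Col14a1, which binds fibrils in dermis and tendon, was at 0.0212, 0.0376 and 0.0838 RPKM in MEF WT and at 0.300, 0.155 and 0.287 RPKM in MEF Nf2 KO. Col9a2 was at 0.0240, 0 and 0.0369 RPKM in MEF WT and at 0.196, 0.0670 and 0.0530 RPKM in MEF Nf2 KO, while the reads behind these values, 0 to 7 and 4 to 12, overlapped. Col20a1 lay at 0.232 to 0.379 RPKM in MEF WT and at 0.161 to 0.204 RPKM in MEF Nf2 KO. The RPKM values of these 3 chains did not overlap between groups (exact permutation p = 0.1 for each), and those of Col19a1 and Col22a1 did. No share over all genes under the filter was worked out to set beside this count. The reads per library overlapped for Col14a1 too, at 2 to 36 in MEF WT and 21 to 147 in MEF Nf2 KO. Those of Col20a1 also overlapped, at 20 to 73 in MEF WT and 16 to 71 in MEF Nf2 KO.

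Among the network, transmembrane and other chains, Col8a1, part of a short-chain network of vessel walls and the cornea, was at 38.3, 50.4 and 43.6 RPKM in MEF WT and at 74.6, 60.3 and 64.0 RPKM in MEF Nf2 KO (chr16:57624258-57754737, minus strand). The groups did not overlap, and Col8a1 passed neither test (0.58 ± 0.14 SE; adjusted p = 0.157, or 0.067 with the block). Col8a2, the partner chain, ran from 0.463 to 1.39 RPKM in MEF WT and from 0.370 to 1.03 RPKM in MEF Nf2 KO. Col7a1, the anchoring fibril chain, was at 22.6, 9.55 and 15.0 RPKM in MEF WT and at 14.2, 11.6 and 16.4 RPKM in MEF Nf2 KO. The groups overlapped and the difference was -0.09 ± 0.29 (SE; adjusted p = 0.991). Col17a1, a hemidesmosome component, was 1 of the 6 chains under the filter. It was at 0.103 to 0.181 RPKM in MEF WT and at 0.00959 to 0.0809 RPKM in MEF Nf2 KO. These values did not overlap (exact permutation p = 0.1), but the reads behind them did, at 8.3 to 66.7 and 1.0 to 19.8. The groups of Col10a1, Col23a1, Col25a1, Col26a1 and Col28a1 overlapped. Over all classes, the 16 chains under the filter ran from 0 to 4.43 RPKM, and apart from Col4a3 none exceeded 0.834 RPKM. At most 20 reads stood behind any library's value of Col9a2, Col23a1, Col24a1, Col25a1, Col26a1 and Col28a1. The depth limits what can be said of these 6, and of Col14a1, Col17a1 and Col20a1.

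Summed over the 36 chains, collagen RNA came to 1520, 1296 and 1755 RPKM in MEF WT and to 1514, 1065 and 1627 RPKM in MEF Nf2 KO. The groups overlapped, and replicate 2 was the lowest of both. Col1a1 and Col1a2 made up 56.2%, 43.7% and 59.4% of this sum in MEF WT and 47.8%, 33.5% and 50.6% in MEF Nf2 KO, lower in each pair but overlapping. The fibrillar class held 73.2% to 82.4% of the sum in MEF WT and 72.1% to 79.5% in MEF Nf2 KO. The basement membrane class summed to 200.1 ± 29.8 RPKM (SD, n = 3) in MEF WT and 180 ± 15.4 RPKM (SD, n = 3) in MEF Nf2 KO, and the FACIT class to 52.8 ± 2.66 and 62.4 ± 8.31 RPKM, both overlapping. The remaining class, most of it Col8a1, summed to 61.4 ± 0.934 RPKM in MEF WT and 81.6 ± 8.80 RPKM in MEF Nf2 KO without overlap.

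**Figure D4:**
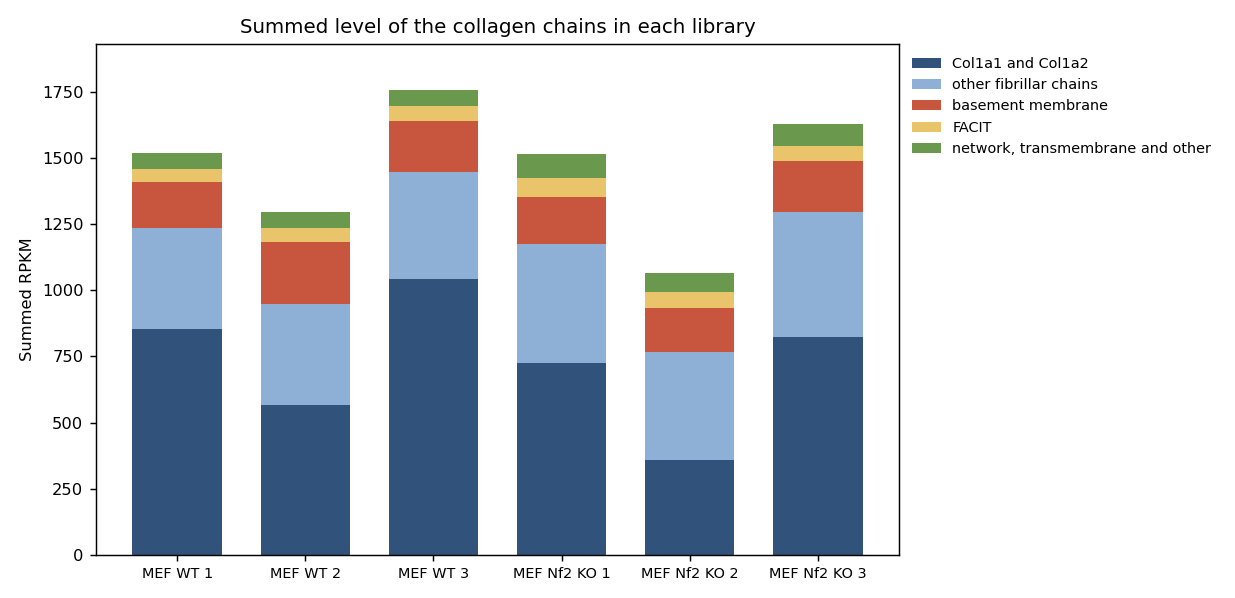
Summed RPKM of the 36 collagen chains in each library, stacked by class, with Col1a1 and Col1a2 apart from the other fibrillar chains. The bars reach 1520, 1296 and 1755 RPKM in MEF WT and 1514, 1065 and 1627 RPKM in MEF Nf2 KO, and the Col1a1 and Col1a2 segment is the smallest of each group in replicate 2.

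Ratios between chains of the same trimer, on the RPKM scale and so per exon length, were compared next, with exact two-sided permutation tests on 3 against 3 libraries, which cannot go below 0.1. Col1a1 to Col1a2 was 2.59 ± 0.638 (SD, n = 3) in MEF WT and 2.34 ± 0.461 in MEF Nf2 KO (exact permutation p = 0.5). Col4a1 to Col4a2 was 1.31 ± 0.0779 and 1.36 ± 0.0699 (exact permutation p = 0.5), the tightest of the 4 ratios. Col5a1 to Col5a2 was 0.822, 0.395 and 0.728 in MEF WT and 0.415, 0.267 and 0.312 in MEF Nf2 KO, lower in each pair and overlapping only through replicate 2 of MEF WT (exact permutation p = 0.2). Col8a1 to Col8a2 ranged from 31.5 to 163 over the 6 libraries, with at most 381 reads per library behind Col8a2 (exact permutation p = 0.3).

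Further ratios were chosen after the values were seen and are given as values only. Col11a1 to Col5a1 was 0.0550 ± 0.0158 (SD, n = 3) in MEF WT and 0.242 ± 0.0975 in MEF Nf2 KO. Col5a3 to Col5a1 was 0.0623 ± 0.0129 and 0.0290 ± 0.00447, and Col4a1 to Col4a5 was 2.85 ± 0.363 and 1.59 ± 0.369. Col4a3 to Col4a4 was 0.707 ± 0.0989 and 0.892 ± 0.0934, so Col4a3 differed by more than Col4a4. The groups did not overlap in these 4 ratios. Col3a1 to Col1a1 was 0.0961 ± 0.0541 and 0.0642 ± 0.0445, and Col4a5 to Col4a6 was 64.99 ± 16.5 and 83.8 ± 21.8, with overlap in both.

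The genes that fold, modify, export and trim procollagen, and the receptors that bind it, were taken from a list of 46, of which 45 are in the table and 38 were tested. They split evenly, with 19 higher and 19 lower in MEF Nf2 KO and a median difference of -0.03. Adamts2, a protease that removes the amino-terminal propeptide, fell from 3.04, 3.11 and 4.08 RPKM in MEF WT to 1.58, 1.25 and 1.12 RPKM in MEF Nf2 KO. Its log2 difference was -0.93 ± 0.14 (SE; limma adjusted p = 0.0399, or 0.0173 with the block). It was the only 1 of the 38 to pass without the block, beside 1.06% of all genes. Leaving out any 1 of the 6 libraries took its adjusted p above 0.05, from 0.0514 without MEF WT 2 to 0.173 without MEF Nf2 KO 3. With the block 5 passed, beside 7.53% of all genes. Besides Adamts2, Bmp1, which removes the carboxy-terminal propeptide, was at 10.8, 8.58 and 10.7 RPKM in MEF WT and 8.74, 6.80 and 8.31 RPKM in MEF Nf2 KO and fell (-0.30 ± 0.13 SE; adjusted p = 0.0414 with the block). Pcolce2, an enhancer of that cleavage, was at 2.36, 5.12 and 2.06 RPKM and 0.681, 2.20 and 0.917 RPKM and fell (-0.87 ± 0.34 SE; adjusted p = 0.0085 with the block). Without MEF WT 2 the log2 difference of Pcolce2 was -0.56 in the fit without the block.

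Plod1, a lysyl hydroxylase, was at 11.9, 9.56 and 12.5 RPKM in MEF WT and 8.60, 7.27 and 10.3 RPKM in MEF Nf2 KO and fell with the block (-0.34 ± 0.15 SE; adjusted p = 0.0375). Itga11, the alpha subunit of a collagen I receptor of fibroblasts, was at 4.40, 3.71 and 11.5 RPKM in MEF WT and at 19.5, 12.8 and 17.7 RPKM in MEF Nf2 KO and rose with the block (1.35 ± 0.37 SE; adjusted p = 0.0381, or 0.227 without it). Of the 7 propeptide-removal genes tested 6 were lower, with a median of -0.30, and 3 passed with the block, beside 7.53% of all genes. The exception was Tll1, a relative of Bmp1, at 3.74, 20.1 and 5.94 RPKM in MEF WT and 7.29, 24.99 and 14.4 RPKM in MEF Nf2 KO (0.75 ± 0.63 SE; adjusted p = 0.877, or 0.0556 with the block). Of the 5 genes, Pcolce2 alone passed with the block whichever replicate number was left out, and Adamts2 passed without replicate 1 or 3. Of the 13 folding and export genes tested, 7 were higher and 6 lower and none passed either limma fit (also 0 by raw p below 0.05 in the fit without it), with differences from -0.22 to 0.29. These hold Serpinh1, the collagen chaperone HSP47, at 228, 220 and 269 RPKM in MEF WT and 298, 220 and 374 RPKM in MEF Nf2 KO.

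Markers of the labelled cell type and of others were set beside these values, and their part in the collagen differences was not tested. Of 10 fibroblast markers 9 were tested, and their summed level was 2249 to 2532 RPKM in MEF WT and 1561 to 1811 RPKM in MEF Nf2 KO. Without the block 4 fell, beside 1.06% of all genes, namely Pdgfra, S100a4, Dcn and Fn1, but Dcn met the filter only through the MEF WT libraries and so had to be lower. These calls fell to 0 without MEF WT 1, MEF WT 3, MEF Nf2 KO 1 or MEF Nf2 KO 2 (6 or 7 at an unadjusted p under 0.05), to 1 without MEF Nf2 KO 3 and to 3 without MEF WT 2, and with the block 6 passed, beside 7.53% of all genes, of which Twist1 rose. With no filter 0 of the 10 passed in limma without or with the block (6 at an unadjusted p under 0.05 in each), and with quantile normalization Fn1 did not pass without it. Fap was under 0.1 RPKM in every library. Pdgfra was at 12.3, 5.22 and 11.7 RPKM in MEF WT and at 1.42, 0.657 and 0.962 RPKM in MEF Nf2 KO (-2.35 ± 0.31 SE; adjusted p = 0.0329). Dcn was at 2.57, 1.60 and 4.01 RPKM in MEF WT and at 0.133, 0.0266 and 0.113 RPKM in MEF Nf2 KO (-1.72 ± 0.24 SE; adjusted p = 0.0348).

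Chondrocyte markers bear on Col11a1, Col2a1 and Col27a1. Of the 8 with values, Sox9 alone was tested, at 7.02, 6.26 and 10.1 RPKM in MEF WT and at 15.4, 5.79 and 18.9 RPKM in MEF Nf2 KO (adjusted p = 0.808, or 0.192 with the block). Their sum was 7.05 to 11.8 RPKM in MEF WT and 6.73 to 20.9 RPKM in MEF Nf2 KO, and Acan, Sox6 and Hapln1 were under 0.1 RPKM in every library. Of those under the filter, Matn3 was higher without overlap, at 0.394, 0.332 and 0.591 RPKM against 0.844, 0.654 and 1.70 RPKM, and Sox5 was lower without overlap, at 0.553, 0.282 and 0.773 RPKM against 0.0461, 0.0108 and 0.0428 RPKM (exact permutation p = 0.1 for each). Hapln1 was also higher without overlap. Smooth muscle markers summed to 476 to 2479 RPKM in MEF WT and 805 to 2844 RPKM in MEF Nf2 KO, with the highest sum of each group in replicate 2, where Col1a1 and Col1a2 were lowest. Acta2 was at 302, 1625 and 501 RPKM in MEF WT and at 625, 2066 and 851 RPKM in MEF Nf2 KO, and it rose with the block (0.72 ± 0.69 SE; adjusted p = 0.0487, or 0.906 without it), the only 1 of the 5 smooth muscle markers tested to pass, beside 7.53% of all genes. Tagln was at 152, 821 and 225 RPKM in MEF WT and at 157, 733 and 289 RPKM in MEF Nf2 KO, and Cnn1 was at 0.923, 4.82 and 2.25 RPKM and at 1.05, 4.43 and 1.71 RPKM, and neither passed either fit. Osteoblast markers summed to 5.07 to 5.71 RPKM in MEF WT and 3.65 to 4.55 RPKM in MEF Nf2 KO, with Alpl, Ibsp, Sp7 and Dmp1 under 0.1 RPKM throughout. Endothelial markers other than Kdr, epithelial markers other than Krt19 and macrophage markers other than Cd68 had means under 1 RPKM, with Pecam1, Cdh1 and Ptprc under 0.1 RPKM throughout.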

How the data were processed

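RNA was extracted with a column kit, and GENEWIZ made and sequenced the libraries and processed the reads. The authors deposited a single file of 26231 genes in 6 libraries. The deposited values are taken as RPKM, reads scaled by the authors to exon length and library size, because, per library, 86.2% to 87.7% of the low values (at most 20 reads) were whole multiples of a read, within 0.1 read, once multiplied by exon length (20% by chance). The unit, and the depth of 13455847 to 73047779 reads derived from it, are inferences. The submitters' processing notes name the build mm10, and the aligner, counter, annotation and strand setting are not given in the sources used here, so reads of overlapping genes on opposite strands may not be told apart. Exon lengths and gene positions came from GENCODE vM21 (GRCm38) and promoter windows from RefSeq (GRCm38.p6).

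Values were set to log2(RPKM + 1). A gene needed 1 RPKM or more in 3 or more libraries, which 11067 did. The two-sided test was that of limma 3.58.1 (R 4.3.3) with the trended, robust form of eBayes, and p-values were adjusted over all of these genes by Benjamini and Hochberg's method, with 0.05 as the threshold. Each SE is from the fit without the block. Genes under the filter and chain ratios were tested with exact permutation of the 6 libraries. Collagens past the threshold with or without the block, or with a mean of at least 5 RPKM in either group, are given library by library, and the others by range, some of them in full. Listed pathway genes are named where they passed, with Serpinh1 and Tll1 added after their values were seen. Gene lists were written from general knowledge. The members, lists and alternatives were chosen with earlier results of these data known.

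Samples were grouped by their labels. Deviations of same-numbered libraries from their group means correlated at 0.552, 0.819 and 0.516 across genes for replicates 1, 2 and 3. The 3 deviations of a group cancel out, so a shift of replicate 2 shared by both groups also raises the values of replicates 1 and 3. Same-numbered libraries were treated as pairs. The value with the replicate block stands beside a result where the block alters a call or moves a count of calls by more than 1.5 times. The alternatives were a smaller pseudocount (0.1), a filter of 5 RPKM or none, median centring, quantile normalization, limma without trend and robust settings, the replicate block, and each library and each replicate number left out. The block was combined with the other choices after seeing the data. The fit was also run on simulated data with planted differences, only as a check of its code. Figures were drawn with matplotlib 3.10.9.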

Additional observations from a re-analysis of the deposited data

How the results depend on the processing

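The 20 collagen chains gave 315 values under alternatives, of which 279 kept their direction and their side of the threshold, 24 passed it where the planned fit did not, and 12 turned in sign, in 6 chains that did not pass either fit. With 1 library or replicate number left out, the log2 difference ran from -0.70 to 0.17 for Col1a2, from -0.32 to 0.17 for Col4a1, from -0.41 to 0.19 for Col4a2, from -0.38 to 0.20 for Col7a1, from -0.50 to 0.11 for Col8a2, from -0.45 to 0.033 for Col9a3, from -1.80 to -0.22 for Col3a1, from -0.67 to -0.13 for Col1a1, from -1.02 to -0.16 for Col2a1, from 0.53 to 1.22 for Col4a4 and from -0.030 to 0.091 for Nf2. The count of chains past the threshold in limma was 0 (10 at an unadjusted p under 0.05). It was 1 with a pseudocount of 0.1, with median centring and with quantile normalization, in each case Col5a3, and 0 to 9 with libraries left out. The replicate block gave 7 chains, and with the block 4 to 6 when a replicate number was left out, 6 with median centring, where Col5a2 did not pass, and 0 with no filter (18 at an unadjusted p under 0.05), where 26231 genes were tested and 2 passed. The median over the chains stayed below 0 under every alternative, from -0.23 to -0.01.

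The count of processing and receptor genes was 1, and 0 with no filter or a filter of 5 RPKM (5 and 2 at an unadjusted p under 0.05), the latter of which removes Adamts2, and 0 to 2 with libraries left out. With the replicate block it was 5, and 0 with no filter, 2 with a filter of 5 RPKM and 2 to 4 with a replicate number left out. The count over all genes was 117, and 9 with no filter, 63 with a filter of 5 RPKM, 0 to 484 with libraries left out and 833 with the replicate block. With the block it was 2 with no filter, 541 with a filter of 5 RPKM and 320 to 454 with a replicate number left out. The cause of these shifts was not tested. Leaving out 1 library leaves 3 against 2, and leaving out a number 2 against 2. The depth of replicates 1 and 2 limits the chains with few reads.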
